A study of Arabidopsis thaliana with 12 samples.

Results

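The 10 genes described here encode nuclear subunits of the plastid NAD(P)H dehydrogenase-like complex (NDH) of Arabidopsis thaliana. They were taken by locus from a set list of subunit names and are 10 of the 33602 gene models in the files. All 10 passed the filter on low counts. NDHL (AT1G70760), NDHM (AT4G37925), NDHN (AT5G58260) and NDHO (AT1G74880) belong to subcomplex A, NDHS (AT4G23890), NDHT (AT4G09350) and NDHU (AT5G21430) to subcomplex E, and PNSB1 (AT1G15980), PNSB2 (AT1G64770) and PNSB3 (AT3G16250) to subcomplex B.

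NDH lies in the thylakoid membrane, associates with photosystem I, and passes electrons from ferredoxin to plastoquinone in cyclic electron transport. Its membrane arm and part of its stromal arm are encoded in the plastid genome, while the remaining subunits are made in the cytosol and imported. Several plastid ndh transcripts need C-to-U RNA editing, in which pentatricopeptide repeat (PPR) proteins such as DYW2 and NUWA (also called OTP100) take part.

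The study sequenced ribosome-depleted total RNA from T-DNA knock-out lines of DYW2 and of NUWA. The 4 groups of 3 libraries were homozygous dyw2 (dyw2_HO), heterozygous dyw2 (dyw2_HE), homozygous nuwa (nuwa_HO) and heterozygous nuwa (nuwa_HE). Every plant therefore carried an insertion, and the controls were heterozygotes, although their deposited tables are named as wild type. Each library pooled flower bud, rosette and stem at Boyes stage 5.10 from plants grown on soil with 16 h of light at 20 °C and nights of 18 °C. The design text speaks of biological replicates, and whether these were separate plants is not stated, so p-values may measure technical spread.

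The genotype fields of dyw2_HO replicate 2 (given as nuwa homozygous) and nuwa_HO replicate 3 (given as dyw2 homozygous) disagree with their titles, and titles were followed. Member reads per 1000000 nuclear counts were 264 in the first, against 176 and 308 in the other dyw2_HO libraries, and 1335 in the second, against 1647 and 1535 in the other nuwa_HO libraries. Libraries held 13329334 to 97804029 counts, with the 3 lowest totals in dyw2_HO. Nuclear genes took 64.7 to 70.4% of counts in dyw2_HO, against 36.2 to 42.4% in dyw2_HE. The flower bud score, the mean log2 CPM (TMM-scaled counts per 1000000) of 10 flower bud markers, was -2.44, -2.63 and 2.42 in nuwa_HO replicates 1 to 3, and 3.47, 2.62 and 3.45 in nuwa_HE. It was -2.00, -1.42 and -1.07 in dyw2_HO, and 3.50, 0.60 and 3.04 in dyw2_HE, so nuwa_HO replicate 3 and dyw2_HE replicate 2 stood apart from their groups.

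The annotation used here names neither mutated gene, and AT2G15690 was taken as DYW2 and AT3G49240 (emb1796) as NUWA. AT2G15690 had 10.3, 11.02 and 9.50 CPM in dyw2_HO, against 7.08, 5.57 and 6.66 CPM in dyw2_HE. emb1796 had 0.761, 1.34 and 1.26 CPM in nuwa_HO, against 0.660, 0.351 and 0.906 CPM in nuwa_HE. Neither locus was lower in its own mutant. AT2G15690 was higher in dyw2_HO, with a log2 fold change of 0.67 (adjusted p 0.00121 to 0.0272 with each library left out in turn, edgeR). For emb1796 in nuwa_HO the log2 fold change was 0.81 and not called (0.185 to 0.556 in the same fits). In the other line, emb1796 averaged 4.36 ± 0.69 CPM in dyw2_HO and 1.07 ± 0.42 CPM in dyw2_HE (SD, n = 3 each). Its log2 fold change there was 2.02 ± 0.36 (SE; adjusted p 0.00048, edgeR). AT2G15690 averaged 11.8 ± 2.80 CPM in nuwa_HO and 5.75 ± 0.66 CPM in nuwa_HE, a log2 fold change of 1.04 ± 0.18 (adjusted p 0.0148, edgeR). That last call was lost without nuwa_HE replicate 1 or 2 (adjusted p 0.0627 and 0.0515), without nuwa_HO replicate 2 (0.0724) and with library size alone (0.141). With groups from the genotype field neither comparison called any gene, so the calls of both loci were lost there. Counts over a whole gene model do not show whether an insertion interrupts the transcript, so these levels do not check the genotypes.

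Of 6 short motifs searched on both strands, from 250 bases before to 50 bases after the annotated start, the I-box GATAAG was found in 4 of the 10 members and in 14.6% of 27443 promoters. The sequences upstream of those 4 genes are shown because they differ in which light-associated motifs they hold. Lower transcripts in dyw2_HO do not set the 4 apart, since all 10 members were lower there. The printed sequences are 250 bases from RefSeq's TAIR10.1 genome. Each ends at the base before the annotated start and is read 5′ to 3′ on the gene's own strand. Capitals mark motif letters, in reverse complement where the match is on the opposite strand.
NDHL promoter: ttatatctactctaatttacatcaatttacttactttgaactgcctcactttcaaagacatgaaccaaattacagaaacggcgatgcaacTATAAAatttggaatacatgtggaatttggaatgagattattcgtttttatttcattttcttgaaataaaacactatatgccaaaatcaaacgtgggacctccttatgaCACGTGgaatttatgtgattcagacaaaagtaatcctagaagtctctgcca
NDHO promoter: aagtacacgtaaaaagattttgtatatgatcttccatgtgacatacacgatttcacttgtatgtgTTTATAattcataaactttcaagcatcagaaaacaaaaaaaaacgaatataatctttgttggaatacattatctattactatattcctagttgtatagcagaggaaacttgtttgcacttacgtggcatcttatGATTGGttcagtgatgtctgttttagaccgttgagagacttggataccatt
NDHT promoter: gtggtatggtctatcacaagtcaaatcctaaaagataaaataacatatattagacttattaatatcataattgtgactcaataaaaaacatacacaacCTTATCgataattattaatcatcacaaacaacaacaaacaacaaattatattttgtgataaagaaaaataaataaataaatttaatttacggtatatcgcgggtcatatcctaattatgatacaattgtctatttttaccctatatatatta
PNSB3 promoter: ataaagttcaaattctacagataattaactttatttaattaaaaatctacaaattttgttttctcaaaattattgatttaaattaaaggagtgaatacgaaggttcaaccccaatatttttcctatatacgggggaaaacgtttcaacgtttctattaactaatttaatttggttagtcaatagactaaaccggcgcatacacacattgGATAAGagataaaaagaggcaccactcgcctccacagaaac

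The NDHL window (chr1:26686952-26687201, plus strand) held the G-box CACGTG, the only one among the members, 51 bases before the start, and TATAAA 160 bases before it. The I-box and CCAATC, a GLK-type motif, lay within the 50 bases after the NDHL start and are not printed. The NDHO window (chr1:28131078-28131327, minus strand) held CCAATC and TATAAA on the opposite strand, 51 and 185 bases before the start, and its I-box also lay after the start. The I-boxes of NDHT (chr4:5932476-5932725, minus strand) and PNSB3 (chr3:5508415-5508664, minus strand) lay 152 and 41 bases before the start.

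CACGTG was found in 1 of 10 members and 7.68% of all promoters, CCAATC in 2 and 12.3%, TATAAA in 4 and 52.1%, and TGGGCC, the site II motif, in 2 and 15.5%. The telo box AAACCCTA was found in no member and in 6.22% of all promoters. NDHM, NDHU and PNSB1 held none of the 6 motifs. These matches describe letters in a window and were not tested against the changes in expression.

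All 10 NDH transcripts were lower in dyw2_HO than in dyw2_HE. The falls ran from 0.0277 times the heterozygous level for NDHU to 0.398 times for NDHS. The comparison asks what loss of DYW2 does to nuclear and organelle transcripts, and 62.9% of the 21213 genes tested were called in it, 32.8% lower and 30.1% higher (adjusted p under 0.05, edgeR quasi-likelihood test with Benjamini-Hochberg adjustment over all genes tested). The members' median log2 fold change was -3.00, beside -0.05 for all genes tested. In none of the 10 genes did any dyw2_HO library overlap any dyw2_HE library, but how many of all genes tested also did not overlap was not counted. A fall was called for all members, against 32.8% of all genes. The split of calls depended on the scaling, since library size alone gave 1923 genes lower and 14756 higher, against 6964 lower and 6376 higher with TMM. Lower calls were then 11.5% of all calls, and 9 of the 10 members were among them.

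**Figure D1:**
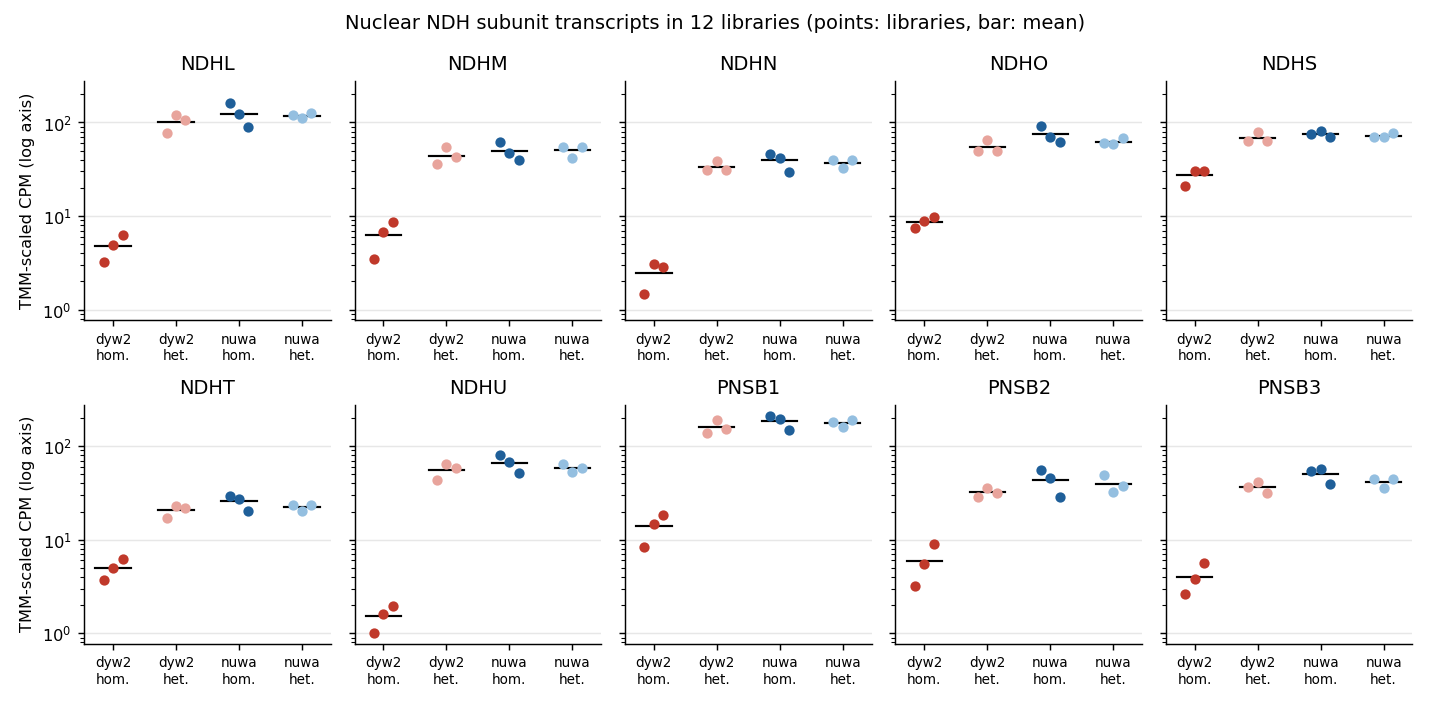
TMM-scaled CPM of the 10 NDH subunit transcripts on log axes, with a point for each library and a bar at the mean of each group of 3. The dyw2 homozygous points lie below those of the other groups in every panel, with NDHU at 1.01 to 1.94 CPM and NDHS at 20.8 to 30.5 CPM.

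Among the subunits of subcomplex A, the stromal arm next to the membrane, NDHL, a membrane-spanning protein, had 3.23, 4.84 and 6.31 CPM in dyw2_HO replicates 1 to 3. In dyw2_HE it had 76.4, 119 and 106 CPM. Every dyw2_HO library lay far below every dyw2_HE library, and the log2 fold change was -4.39 ± 0.30 (SE), with an adjusted p of 6.4e-07 by edgeR. The stromal subunit NDHN had 1.48, 3.04 and 2.88 CPM in dyw2_HO, against 31.0, 38.5 and 31.1 CPM in dyw2_HE, a log2 fold change of -3.75 ± 0.26 (adjusted p 7.43e-07, edgeR). NDHM, also on the stromal side, had 3.47, 6.81 and 8.62 CPM in dyw2_HO, against 36.0, 54.1 and 42.8 CPM in dyw2_HE. Its log2 fold change was -2.81 ± 0.30 (adjusted p 1.21e-05, edgeR). NDHO, another stromal subunit, was the least reduced of the nuclear A subunits described here. It had 7.54, 8.81 and 9.80 CPM in dyw2_HO, against 49.2, 64.5 and 49.5 CPM in dyw2_HE. Its log2 fold change was -2.64 ± 0.19 (adjusted p 7.73e-07, edgeR).

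Subcomplex E, the site at which the electron donor is held, contained both the largest and the smallest fall. NDHU, annotated with a DnaJ domain as is NDHT, had 30, 81 and 64 counts in dyw2_HO, or 1.01, 1.60 and 1.94 CPM. In dyw2_HE it had 2296, 3487 and 3540 counts, or 43.0, 64.6 and 58.4 CPM. The log2 fold change was -5.18 ± 0.27 (95% interval -5.77 to -4.58; adjusted p 1.64e-07, edgeR), rank 503 of 21213 from the most negative. NDHS, which takes part in binding ferredoxin, had 20.8, 30.5 and 30.0 CPM in dyw2_HO, against 62.8, 78.9 and 62.9 CPM in dyw2_HE. The groups did not overlap, and the log2 fold change was -1.33 ± 0.16 (95% interval -1.68 to -0.97; adjusted p 3.08e-05, edgeR). NDHT had 3.67, 5.04 and 6.28 CPM in dyw2_HO, against 17.0, 23.2 and 21.7 CPM in dyw2_HE, with a log2 fold change of -2.04 ± 0.21 (adjusted p 7.47e-06, edgeR). The NDHU interval did not meet those of NDHT (-2.50 to -1.59) and NDHS, which overlapped each other.

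Subcomplex B is specific to the plant complex and lies on the stromal side beside the membrane arm. PNSB1 had 8.44, 14.9 and 18.3 CPM in dyw2_HO, against 139, 189 and 151 CPM in dyw2_HE, a log2 fold change of -3.52 ± 0.27 (adjusted p 1.26e-06, edgeR). PNSB3 had 2.62, 3.79 and 5.61 CPM in dyw2_HO, against 36.5, 41.8 and 31.7 CPM in dyw2_HE, a log2 fold change of -3.19 ± 0.26 (adjusted p 1.67e-06, edgeR). PNSB2 varied most among dyw2_HO libraries relative to its mean, with 3.20, 5.53 and 8.95 CPM there, against 28.8, 35.9 and 31.4 CPM in dyw2_HE. Its log2 fold change was -2.44 ± 0.34 (adjusted p 8.84e-05, edgeR).

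Replicate 1 of dyw2_HO was the lowest of its group for all 10 members, and replicate 2 of dyw2_HE the highest of its group for all 10. Flower bud markers were lower in dyw2_HO too, with 8 of 10 called. Their summed level was 5.35 to 10.5 CPM there and 41.7 to 128 CPM in dyw2_HE, and MS2 and AT5G07230 were at 0 in all dyw2_HO libraries. Within dyw2_HE they did not follow the members, since replicate 2 had the lowest flower bud score of that group (0.60). The 4 rosette leaf markers, photosynthesis and photorespiration genes, summed to 2210 to 3648 CPM in dyw2_HO and 18960 to 26910 CPM in dyw2_HE, and all 4 were called lower. Stem markers, cellulose synthases and other secondary wall genes, summed to 4.48 to 9.10 CPM in dyw2_HO and 9.43 to 19.6 CPM in dyw2_HE, with 3 of 6 called lower. With library size alone 6 of 10 bud markers and 3 of 4 leaf markers were called lower, and of the stem markers 1 was lower and 1 higher. In such bulk samples, fewer cells of a type and less RNA per cell cannot be told apart. With the flower bud score fitted as a covariate, the members' median was -3.26 with 10 of 10 lower. The score did not overlap between the groups (-2.00 to -1.07 in dyw2_HO, 0.60 to 3.50 in dyw2_HE), so that adjustment rests on differences within groups. Without the disputed libraries the members' median was -3.01 with 10 of 10 lower. The part of bud or leaf content in the result was not tested. With groups taken from the genotype field instead, no member was called in edgeR or had an unadjusted p under 0.05, and the median was -1.29, and with library size alone as the scaling NDHS was at -0.01 (adjusted p 0.941), where the median of all genes was 1.26.

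In the nuwa comparison, which asks the same of NUWA, the 10 transcripts showed no detected change. None was called by edgeR's quasi-likelihood test, none had an unadjusted p under 0.05, and DESeq2 called none, where 2.18% of all genes tested were called by edgeR in either direction. Member log2 fold changes lay between -0.02 for NDHM and 0.28 for PNSB3, with a median of 0.11 beside -0.02 for all genes tested. The 95% intervals together covered -0.63 to 0.84 on the log2 scale, which excludes falls as large as those in dyw2_HO. Groups overlapped for all 10 genes.

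**Figure D2:**
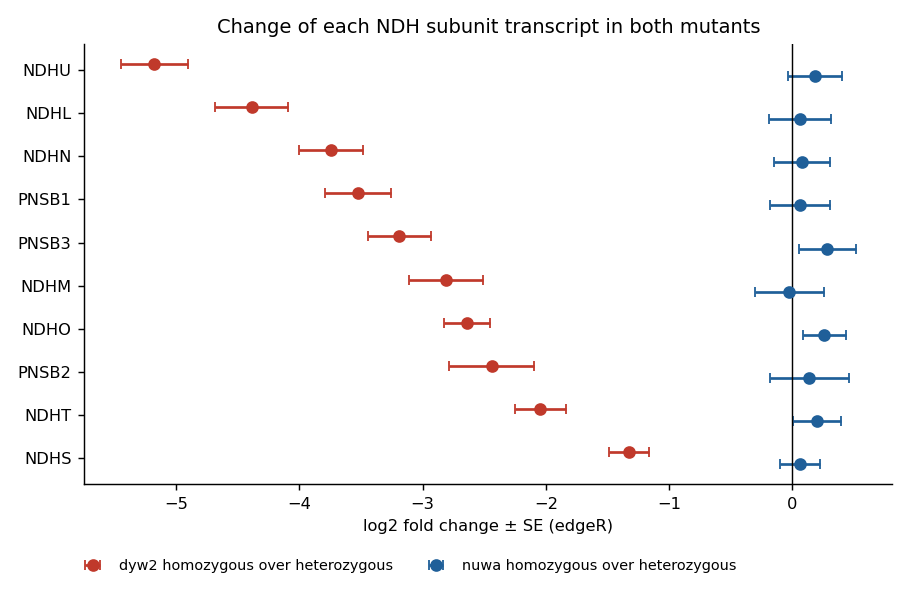
Log2 fold change ± SE of each NDH subunit transcript, homozygous over heterozygous, for dyw2 and for nuwa (edgeR, 3 libraries a group), ordered by the dyw2 value. The dyw2 values run from -5.18 for NDHU to -1.33 for NDHS, and the nuwa values from -0.02 to 0.28.

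NDHU had 81.3, 67.0 and 52.1 CPM in nuwa_HO, against 64.5, 53.2 and 58.9 CPM in nuwa_HE. NDHL had 160.0, 123 and 88.4 CPM in nuwa_HO, against 119, 110.5 and 126 CPM in nuwa_HE, so the group with the wider spread was nuwa_HO. NDHS, the steadiest of the 3, had 75.7, 81.8 and 69.6 CPM in nuwa_HO, against 70.3, 69.9 and 77.2 CPM in nuwa_HE. Replicate 3 was the lowest nuwa_HO library for all 10 members, and it was also the nuwa_HO library with the high flower bud score. The bud markers summed to 3.62 to 67.6 CPM in nuwa_HO and 75.6 to 129 CPM in nuwa_HE, and none of the 10 was called by edgeR, with 3 at an unadjusted p under 0.05 and 2 called by DESeq2. The rosette leaf markers summed to 19690 to 27200 CPM in nuwa_HO and 21710 to 22130 CPM in nuwa_HE. With that library left out together with dyw2_HE replicate 2, the members' median in nuwa was 0.30 and none was called by edgeR, with 1 at an unadjusted p under 0.05. With the score fitted as a covariate, the median was -0.23 and none was called.

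**Figure D3:**
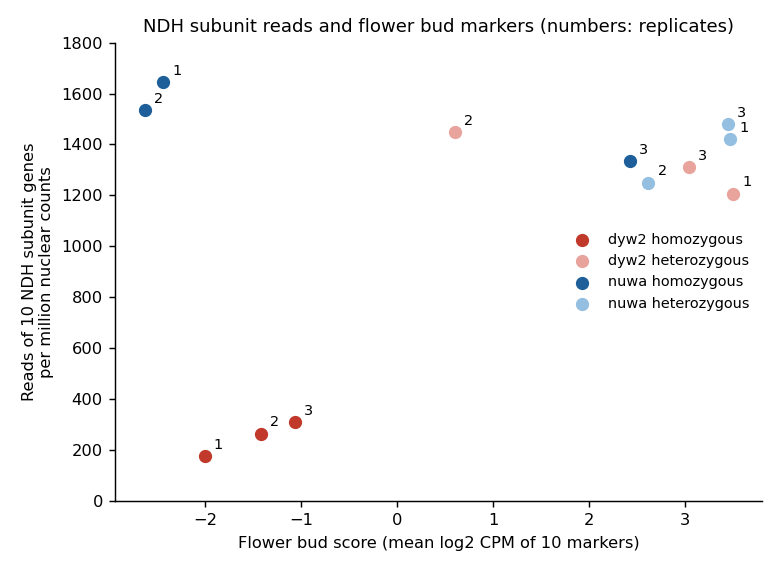
Reads of the 10 NDH subunit genes per 1000000 nuclear counts against the flower bud score, the mean log2 CPM of the flower bud markers, with a numbered point for each of 12 libraries. The 3 dyw2 homozygous libraries sit at 176 to 308, while nuwa homozygous replicates 1 and 2, with lower flower bud scores than these, sit at 1647 and 1535.

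The dyw2 effect differed from the nuwa effect for all 10 members in the test of the difference itself, in which 21.7% of all genes were called lower. The differences, dyw2 effect minus nuwa effect, ran from -5.36 ± 0.34 for NDHU to -1.39 ± 0.23 for NDHS (log2, SE). Adjusted p was 1.1e-05 for NDHU and 0.000582 for NDHS, and the largest was 0.00112 for PNSB2 (edgeR). With groups from the genotype field no member was called in this test either, and with library size alone NDHS was not called. Reads of the 10 genes together took 176, 264 and 308 reads per 1000000 nuclear counts in dyw2_HO, against 1207, 1449 and 1310 in dyw2_HE. The same sum was 1647, 1535 and 1335 in nuwa_HO, against 1422, 1250 and 1480 in nuwa_HE.

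No difference between the heterozygous controls was detected. Between dyw2_HE and nuwa_HE no member was called by edgeR, where 0.132% of all genes were, none had an unadjusted p under 0.05, and DESeq2 called none. The members' log2 fold changes lay between -0.31 for PNSB2 and -0.09 for NDHS, with 95% intervals that together covered -1.01 to 0.42, and all overlapped between groups. Mean CPM ordered the groups as dyw2_HO, dyw2_HE, nuwa_HE and nuwa_HO, low to high, for 9 members. For NDHM the nuwa_HO mean, 49.8 CPM, was below that of nuwa_HE, 50.6 CPM. Only the step between dyw2_HO and the next group exceeded the spread between libraries.

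The order of the members by level per length also differed in dyw2_HO. On a scale of CPM per kilobase of gene model, NDHS was highest there at 25.8 ± 5.20 (SD, n = 3). It did not overlap NDHO at 11.1 ± 1.44. NDHU had the lowest mean at 1.60 ± 0.50 but overlapped NDHN at 2.92 ± 1.02. Below NDHS, all 8 pairs of neighbours in rank overlapped in dyw2_HO. In dyw2_HE NDHL led at 126 ± 27.6, overlapping PNSB1 at 102 ± 16.5. NDHS had rank 4 there at 64.9 ± 8.82, NDHU rank 5 at 58.5 ± 11.7, and PNSB2 lowest at 18.3 ± 2.05. Both nuwa groups began with NDHL, PNSB1, NDHO, NDHS and NDHU and ended with NDHT and PNSB2, as dyw2_HE did.

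The highest member was 16.1 times the lowest in dyw2_HO and 6.88 times in dyw2_HE, against 6.24 times in nuwa_HO and 6.57 times in nuwa_HE. NDHU per NDHS, each per length, was 0.0538, 0.0583 and 0.0718 in dyw2_HO, against 0.761, 0.909 and 1.03 in dyw2_HE. The ratio was 1.19, 0.911 and 0.832 in nuwa_HO, against 1.02, 0.845 and 0.848 in nuwa_HE. The 2 E subunits were thus nearly level in 9 libraries and far apart in the 3 dyw2_HO libraries. Ratios within a library do not depend on its scaling, but this pair was picked after its values were seen and was given no test.

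**Figure D4:**
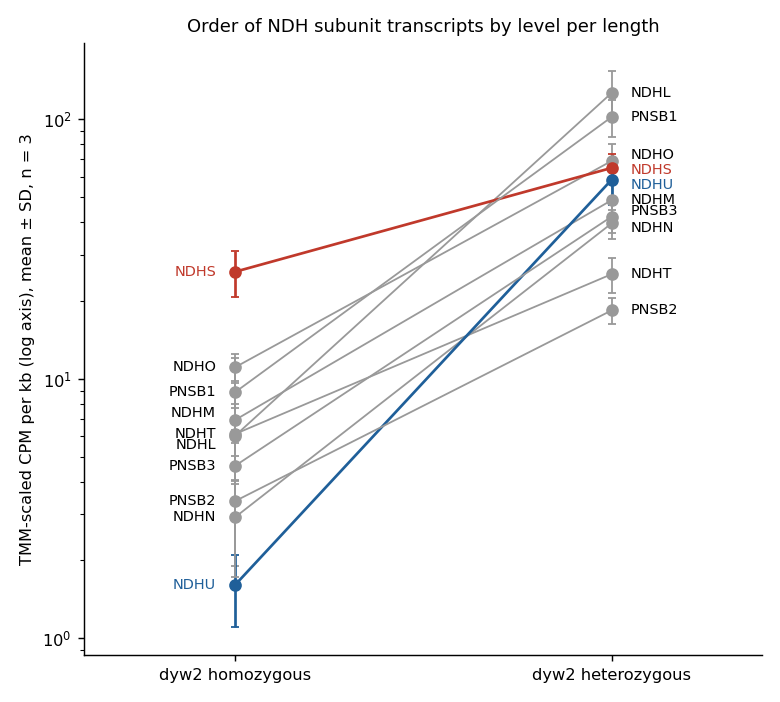
Mean CPM per kilobase ± SD (n = 3, log axis) of the 10 NDH subunit transcripts in dyw2 homozygous and dyw2 heterozygous libraries, with NDHS and NDHU in colour. NDHS is first at 25.8 and NDHU last at 1.60 in the homozygotes, while they lie side by side at 64.9 and 58.5 in the heterozygotes.

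The members also varied together within groups. Over the 45 pairs the median Pearson correlation of log2 CPM was 0.991 across 12 libraries, the low dyw2_HO libraries included. After subtraction of group means it was 0.879, from 0.681 for NDHO with NDHS to 0.983, and above 0 for all 45 pairs. These libraries share depth and tissue makeup, and the correlations are descriptions. The gene most like the members' mean profile across 12 libraries was AT2G46820 (r = 0.999), which RefSeq names PSI-P. Next came AT2G32500, PMDH2 (a peroxisomal malate dehydrogenase), PnsL1 (a lumenal NDH subunit) and AT4G39970. After subtraction of group means the most similar genes were PSI-P (r = 0.992), AT1G71500, PnsB4, AT5G64460 and AT2G32500.

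Other parts of the NDH system were examined through lists described by counts and medians. The 10 other nuclear NDH subunits and photosystem I linkers were all lower in dyw2_HO, with a median log2 fold change of -3.71. The lumenal subunits PnsL4 and PnsL3 and the B subunit PnsB5 had -3.53 ± 0.21, -3.96 ± 0.27 and -3.89 ± 0.26. The 9 NDH assembly factors were all lower, with a median of -2.64, among them CRR1 at -2.77 ± 0.20 and CRR3 at -2.96 ± 0.28, and CRR6 least at -0.58 ± 0.16 (chosen after its value was seen). None of these 19 genes was called in nuwa by edgeR or DESeq2, with 1 assembly factor at an unadjusted p under 0.05 in edgeR. Of the 12 plastid ndh loci, 10 passed the filter on low counts. Reads with equal best and second-best alignment scores had been removed, so a low count there need not mean a low level. All 10 were lower in dyw2_HO with a median of -2.73. None was called in nuwa by edgeR or DESeq2 or had an unadjusted p under 0.05 in edgeR. With library size alone 9 of the 10 other subunits, 6 of 9 assembly factors and 9 of 10 plastid loci were called lower in dyw2_HO, and 1 assembly factor was higher.

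Mean reads per length of the 12 plastid ndh loci, divided by those of the 10 members, were 32.0 to 41.5 in dyw2_HO. They were 26.1 to 30.7 in dyw2_HE. They were 20.0 to 25.9 in nuwa_HO, against 24.9 to 28.5 in nuwa_HE. The dyw2 ranges did not meet, but such a mean follows its most abundant loci, and it includes the plastid loci that did not pass the filter. The 10 plastid loci that passed the filter fell unequally, with log2 fold changes from -3.90 ± 0.23 for ATCG00440 to -1.54 ± 0.24 for ATCG01050. ATCG00440, ATCG00430 (-3.86 ± 0.27) and ATCG00420 (-3.75 ± 0.23) lay below the members' median of -3.00. ATCG01050 averaged 1258 CPM in dyw2_HO and 3663 CPM in dyw2_HE.

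RNA factors did not move one way. Of 14 factors that process or edit ndh transcripts, 5 were higher, 6 lower and 3 not called in dyw2_HO, with a median of -0.06. Of all genes tested, 30.1% were called higher and 32.8% lower, so this split lay near that of all genes. The PPR editing factors OTP82 and OTP81 rose by 2.004 ± 0.31 and 1.66 ± 0.25 (log2, SE). The editing factors DYW1, at -2.33 ± 0.22, and MORF9, at -1.16 ± 0.16, fell, but MORF9 was at 0.16 with library size alone. With library size alone 9 of the 14 were higher and 2 lower, where 14756 of all 21213 genes were higher and 1923 lower. In nuwa all 14 had a log2 fold change above 0, with a median of 0.47. There edgeR called 1 higher, with 4 at an unadjusted p under 0.05, and DESeq2 called 3 higher. Of all 21213 genes tested in nuwa, edgeR called 462 and DESeq2 1413 in either direction. Among 4 genes of the PGR5 route of cyclic electron transport and of plastid terminal oxidase, PGR5 (-1.79 ± 0.19) and PGR5-LIKE A (-2.46 ± 0.22) fell, while PGRL1B at -0.31 ± 0.15 and IM at 0.22 ± 0.14 were not called. With library size alone 2 of the 4 were higher and 2 lower, with a median of 0.28, against -1.05 with TMM. None of the 4 was called in nuwa by edgeR or DESeq2 or had an unadjusted p under 0.05 in edgeR.

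The fall extended to the photosystems. All 12 nuclear photosystem I subunits (median -2.83; PSAN -3.31 ± 0.27) and all 11 nuclear photosystem II subunits (median -2.81; PSBQA -3.27 ± 0.24) were lower in dyw2_HO. The members' median of -3.00 lay close to both, while their range of -5.18 to -1.33 was wider than that of either list, -3.31 to -1.51 for photosystem I and -3.27 to -2.20 for photosystem II. Of 13 nuclear subunits of mitochondrial complex I, the respiratory relative of NDH, 5 were higher, 4 lower and 4 not called, with a median of -0.07. This split too lay near that of all genes tested, 30.1% higher and 32.8% lower. EMB1467 rose by 1.70 ± 0.31 and FRO1 fell by 1.25 on the log2 scale (SE 0.16), though FRO1 was at 0.063 with library size alone. With library size alone 9 of 12 photosystem I and 11 of 11 photosystem II genes were lower, while 12 of 13 complex I genes were higher. That scaling called 14756 of all 21213 genes higher. In nuwa none of these 3 lists had a gene called by edgeR. There DESeq2 called 1 complex I gene, and 4 complex I genes had an unadjusted p under 0.05 in edgeR. Of all 21213 genes, DESeq2 called 1413 in nuwa, and 4034 had an unadjusted p under 0.05 in edgeR.

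**Figure D5:**
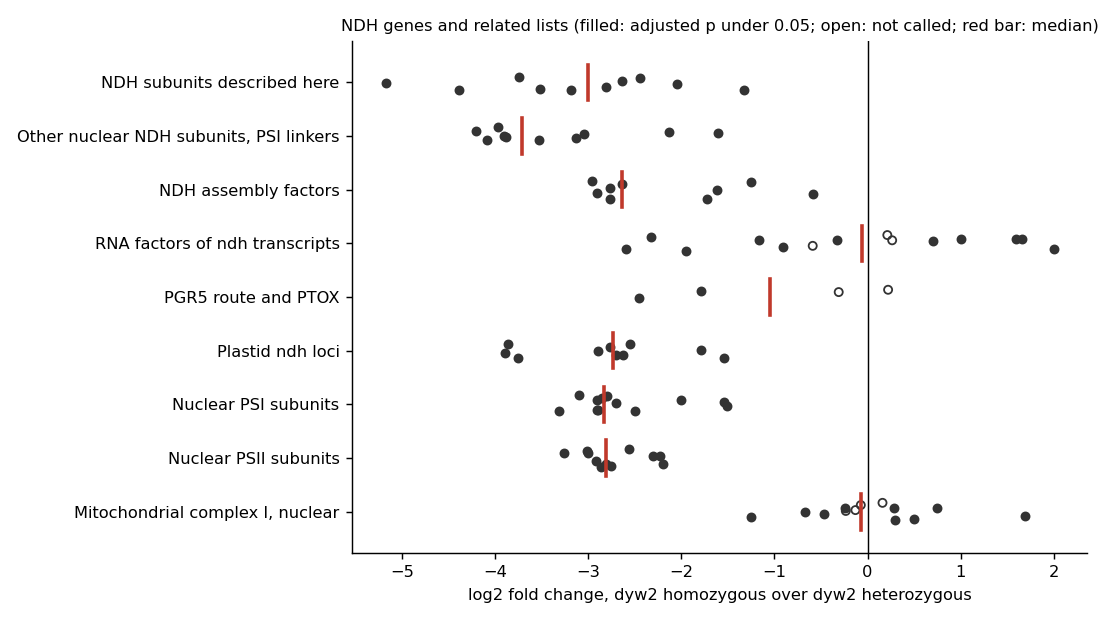
Log2 fold change in dyw2 homozygous over dyw2 heterozygous libraries for the 10 NDH subunits and 8 related lists, with filled points for an adjusted p under 0.05, open points for genes not called and a red bar at each median. Medians lie between -2.64 and -3.71 for NDH and photosystem lists and near 0 for RNA factors (-0.06) and mitochondrial complex I (-0.07).

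No source used here says if counting kept to 1 strand, so reads of overlapping genes may have been shared. NDHL, NDHN, NDHS, PNSB1 and PNSB3 overlap annotated genes on the opposite strand, and NDHM, NDHO, NDHT, NDHU and PNSB2 overlap none. The largest overlaps of NDHL (830 bases), NDHS (709 bases) and PNSB3 (282 bases) were with annotated long noncoding RNA genes, for which no counts were given. CNGC7, which overlaps PNSB1 over 231 bases, averaged 0.33 counts in dyw2_HO and 2.33 in dyw2_HE and did not pass the filter. AT1G70770, which overlaps NDHL over 587 bases, was higher in dyw2_HO (0.84 ± 0.16). AT4G23885, which overlaps NDHS over 54 bases, was also higher (1.36 ± 0.28). EMB3143, which overlaps NDHN over 211 bases, fell as NDHN did, averaging 577 counts in dyw2_HO and 2696 in dyw2_HE, a log2 fold change of -1.65 ± 0.23. ABCB25, which overlaps NDHN over 112 bases, was at 0.04 ± 0.15 and not called. DELTA-TIP, a vacuolar aquaporin gene that overlaps PNSB3 over 120 bases, averaged 1910 counts in dyw2_HO and 27320 in dyw2_HE, a log2 fold change of -3.26 ± 0.30. PNSB3 changed by about as much, -3.19. The share of any member's counts that came from an overlapping gene, DELTA-TIP included, was not tested.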

How the data were processed

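The authors deposited 1 table of raw read counts per gene model for each of 12 libraries. Per the file headers, reads with equal best and second-best alignment scores were removed before counting. Per the submitters' processing notes, TopHat2, Bowtie2 and TAIR10 were used, with versions not given in the sources used here. Per the labels' protocols, libraries were stranded and made from ribosome-depleted RNA.

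Counts were fitted in R 4.3.3 with edgeR 4.0.16 as 1 model of 4 groups (8 residual degrees of freedom), with TMM scaling, filterByExpr (minimum count 10) and the quasi-likelihood F-test, and adjusted by Benjamini-Hochberg over 21213 genes. The call threshold was an adjusted p of 0.05. Log2 CPM used a prior count of 2, and levels per length used the deposited model length. DESeq2 1.42.0, other scalings and filters, thinning, left-out libraries, the genotype field and a flower bud covariate were alternatives. The scripts were tested on simulated counts.

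Named genes were the members, the mutated genes, up to 3 called genes per direction and list with the smallest p, and the 5 most correlated genes. The members and lists were chosen with earlier results of these data known. Replicate counts differed by more than sampling noise in every pair. Promoters came from RefSeq's TAIR10.1, and nuclear coordinates are those of its annotation.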

Additional observations from a re-analysis of the deposited data

Results flagged for a closer look

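For all 10 NDH subunit genes the dyw2 effect differed from the nuwa effect in the test of the difference (edgeR quasi-likelihood test, adjusted p 1.1e-05 to 0.00112). On the log2 scale, dyw2 effect minus nuwa effect was -4.45 for NDHL, -2.79 for NDHM, -3.82 for NDHN and -2.90 for NDHO in subcomplex A. It was -1.39 for NDHS, -2.24 for NDHT and -5.36 for NDHU in subcomplex E. In subcomplex B it was -3.58 for PNSB1, -2.58 for PNSB2 and -3.47 for PNSB3.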

How the results depend on the processing

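In dyw2, 250 member values over 25 alternatives gave 239 with the same direction and call, 11 with the same direction and no call, and none reversed. The 11 were the 10 members with groups from the genotype field and NDHS with library size alone. With the genotype field the dyw2 comparison called 0 members and 0 genes (5346 at an unadjusted p under 0.05; member median -1.29), the difference called 0 members and 0 genes (median -1.09), and nuwa and the heterozygotes called 0 genes each. Titles and genotype fields differ for 1 library of each homozygous group, and the cause was not tested. With library size alone the dyw2 member median was -1.69, nuwa called 60 genes, the difference called 14664 genes with a member median of -1.89, the heterozygotes called 13 genes, and MORF9 (0.16), FRO1 (AT5G67590, 0.063), AT4G02580 (0.65) and AT5G52840 (0.84) reversed in dyw2; the median of all genes shifted to 1.26 there.

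The nuwa count of 462 genes was unsteady: DESeq2 gave 1413 (and 160 between heterozygotes, against 28), a fit of the compared groups alone 6, a flower bud covariate 240, removal of both disputed libraries 1411, and removal of both libraries with a deviating flower bud score, a setting chosen after seeing the data, 2149. No member was called in nuwa in any of these. A replicate block gave 183 nuwa genes, and changed no member's call. Same-numbered libraries correlated at -0.01 to 0.17 and 5 of 12 correlated best with their own number, so the numbers were not taken as pairs.

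Leaving out each library in turn gave 10 to 10 dyw2 members, 11777 to 13860 dyw2 genes and medians of -3.30 to -2.76. It gave 0 nuwa members, 94 nuwa genes (without nuwa_HO replicate 2) to 1739 (without nuwa_HO replicate 3) and medians of -0.02 to 0.30. The difference called 7256 to 9541 genes with medians of -3.43 to -3.03, and the heterozygotes 18 to 115 genes with medians of -0.29 to -0.04. Of uncalled nuwa member values, 35 changed sign. Depth limits NDHU most, at 30 counts in dyw2_HO replicate 1.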
